A study of Bos taurus with 18 samples.

Results

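The lymphocyte miRNAs *bta-miR-150* and *bta-miR-342* were followed in the plasma of Japanese Black cattle during fattening. They were chosen by name, as 2 of the 1071 miRNAs in the deposited tables, and both had a value in all 18 libraries. Plasma was drawn from 3 steers, each at about 20 months, about 25 months and about 30 months, which gave 9 plasma samples. Each sample gave 1 exosomal (EX) library, from RNA inside small vesicles that cells release, and 1 free-circulating (FC) library, from RNA outside them. The 6 groups were therefore EX and FC at 20, 25 and 30 months, each with 3 libraries, 1 from each steer. The same steers were sampled at each age, under the same feeding system and with no treatment that differed between groups. The labels and methods give no untreated or unfattened control animals, so age, season, sampling day and stage of fattening cannot be told apart.

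A miRNA is a short RNA that pairs through its seed, the bases near its 5′ end, with sites in messenger RNAs and lowers their translation or stability. *miR-150* is abundant in mature B, T and natural killer lymphocytes, and represses the transcription factor gene *MYB* during lymphocyte development. *miR-342* lies within the host gene *EVL*, which encodes an actin regulator, and is expressed in blood leukocytes. miRNAs in plasma are released by living or dying blood cells and by tissues, in vesicles or bound to proteins.

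The mature sequences are shown because the seed sets which messenger RNAs each miRNA can pair with, and because reads of near-identical miRNAs could be mixed. Capitals mark the seed, bases 2 to 8, and *bta-miR-2409* is added as the miRNA of the table whose seed is closest to that of *bta-miR-342*.
bta-miR-150: uCUCCCAAcccuuguaccagugu
bta-miR-342: uCUCACACagaaaucgcacccaucu
bta-miR-2409: uCUCACAUggacgcugcccu

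The 2 miRNAs begin with the same 4 bases, UCUC, and have 5 of 7 seed bases in common, so they belong to different seed families. Aligned from the 5′ end without gaps, 8 of 23 positions were identical. The site that pairs with the seed is UUGGGAG for *bta-miR-150* and GUGUGAG for *bta-miR-342*. Of the other miRNAs in the table, 0 had the same bases 2 to 8 as either. *bta-miR-2409* had bases 2 to 7 in common with *bta-miR-342*, but its mean abundance was only 4.40 CPM in EX, and 0.728 CPM in FC libraries. CPM is the count of a miRNA scaled to the same total in every library. In the RefSeq gene table of the assembly ARS-UCD2.0, *MIR150* is on chromosome 18 and in no protein-coding gene, while *MIR342* is on chromosome 21 within *EVL*. The 2 genes are therefore on different chromosomes.

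The libraries held 991354 to 2778618 counts in EX and 3615234 to 12088735 in FC. The counts of the 2 miRNAs ran from 6419 to 2150435, all 36 of them whole numbers, and the Wilson 95% interval of each share reached 0.120% to 2.44% of its value to either side. These intervals cover counting error only, as reads copied from one molecule are not independent. The totals were lower at 30 months, at 991354 to 1988408 in EX against 1837454 to 2437284 at 25 months, and at 3615234 to 4871908 in FC against 6958135 to 11065931. The part of this difference in the results below was not tested. The 25 months plasma sample of steer 3 had the highest CPM of both miRNAs in both fractions. For *bta-miR-342* in EX the margin was narrow, at 48429 against 45654 CPM in steer 2 at 20 months. Results that rest on the 25 months sample of steer 3 are also given without it. The tables list no lymphocyte messenger RNAs, so that the cells of origin could not be checked, and in plasma fewer lymphocytes and less release per lymphocyte cannot be told apart.

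*bta-miR-150* was among the most abundant plasma miRNAs at 20 and 25 months and was a minor one at 30 months. In EX at 20 months it stood at 157118, 157185 and 118639 CPM in steers 1, 2 and 3. At 25 months it stood at 94908, 120314 and 276263 CPM, and at 30 months at 15283, 7248 and 17120 CPM. All 3 libraries at 30 months were below all 6 libraries at the earlier ages, and steer 3 at 25 months was the highest. The mean ± SD was 144314 ± 22235, 163828 ± 98196 and 13217 ± 5250 CPM (n = 3 each), or 14.4%, 16.4% and 1.32% of the library. It ranked 1 to 2 among all miRNAs of a library at 20 and 25 months and 11 to 34 at 30 months.

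In FC, *bta-miR-150* stood at 78022, 78932 and 65258 CPM at 20 months, again in steers 1, 2 and 3. The 25 months values were 65415, 74960 and 194329 CPM, and the 30 months values 18750, 7188 and 9629 CPM. The order was as in EX, with no overlap between 30 months and the earlier ages, and steer 3 at 25 months again was highest. The share of all miRNAs with such a separation was computed in neither fraction, so whether it was unusual was not tested. The mean was 74071 ± 7646, 111568 ± 71832 and 11855 ± 6094 CPM (SD, n = 3 each), or 7.41%, 11.2% and 1.19% of the library. The rank was 3 to 4, 1 to 5 and 14 to 30 at these ages.

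*bta-miR-342* was less abundant and spanned a narrower range. In EX of steers 1, 2 and 3 it stood at 33880, 45654 and 37278 CPM at 20 months. The 25 months values were 18507, 22655 and 48429 CPM, and the 30 months values 7016, 6475 and 10344 CPM. The 30 months libraries were the lowest 3 of the 9. The means were 38937 ± 6060, 29864 ± 16211 and 7945 ± 2095 CPM (SD, n = 3 each), or 3.89%, 2.99% and 0.795% of the library. The FC libraries held 22426, 18003 and 14097 CPM at 20 months. They held 15275, 16601 and 36498 CPM at 25 months, and later 8176, 7463 and 5759 CPM at 30 months. There, too, the 3 libraries at 30 months did not overlap with the others. Whether this separation was unusual among all miRNAs was again not tested, in EX or in FC. The means were 18176 ± 4168, 22791 ± 11889 and 7133 ± 1242 CPM, or 1.82%, 2.28% and 0.713% of the library.

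The 2 miRNAs together made up 18.3 ± 2.44%, 19.4 ± 11.4% and 2.12 ± 0.694% of an EX library at 20, 25 and 30 months (SD, n = 3 each). In FC they made up 9.22 ± 1.13%, 13.4 ± 8.37% and 1.90 ± 0.688%. Their share at 25 months ran from 11.3% to 32.5% in EX, the highest in steer 3. When so large a share is lost, the CPM of all other miRNAs is pushed up, which TMM normalization is meant to correct.

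**Figure D1:**
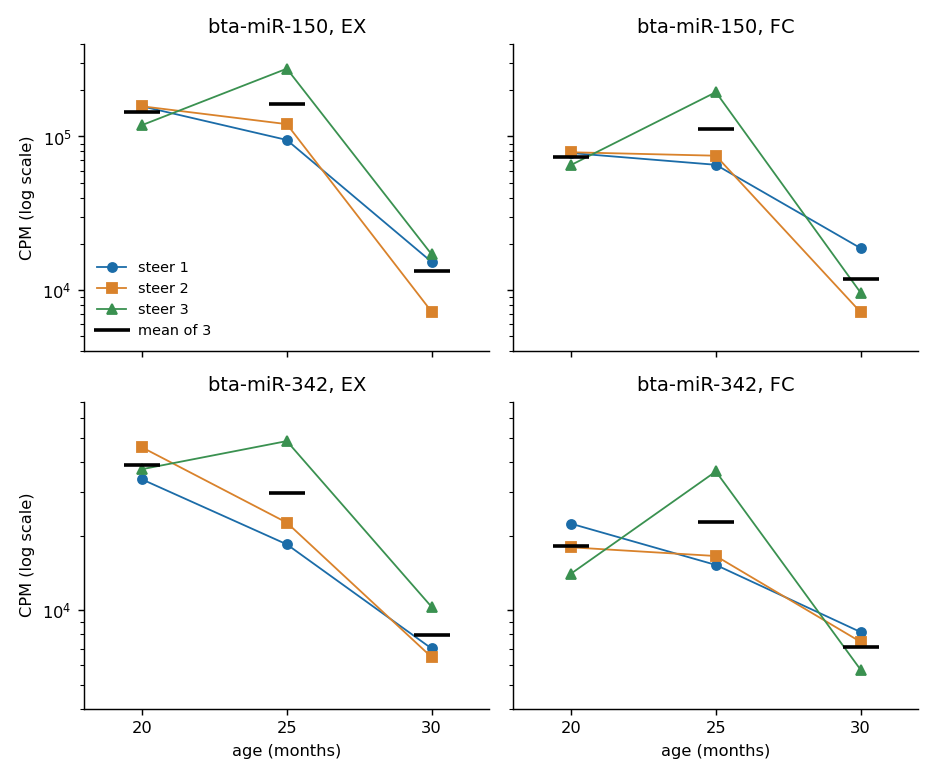
Abundance of *bta-miR-150* (top) and *bta-miR-342* (bottom) in EX (left) and FC (right), in CPM on a log scale, against age in months. Each line is 1 steer and each black bar the mean of 3 libraries; in every panel the 3 libraries at 30 months lie below the other 6, and steer 3 is highest at 25 months.

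The comparison of 30 with 25 months asks how the profile changed late in fattening. Both miRNAs fell in both fractions, *bta-miR-150* more than *bta-miR-342*. In EX, the abundance of *bta-miR-150* at 25 months was 6.21, 16.6 and 16.1 times that at 30 months in steers 1, 2 and 3, and that of *bta-miR-342* 2.64, 3.50 and 4.68 times. The log2 fold change in EX was −4.06 for *bta-miR-150* (standard error 0.60, 95% interval −5.43 to −2.69, FDR = 0.00453). For *bta-miR-342* it was −2.31 (standard error 0.41, −3.26 to −1.37, FDR = 0.00795). These are edgeR quasi-likelihood tests over the 345 miRNAs selected in EX, with steer as a block, and a miRNA was called at FDR < 0.05 and |log2 fold change| > 1. Of the 345, 10.4% were called lower at 30 months and 3.77% higher, and the median log2 fold change was −0.51.

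In FC, the abundance of *bta-miR-150* at 25 months was 3.49, 10.4 and 20.2 times that at 30 months in steers 1, 2 and 3. For *bta-miR-342* it was 1.87, 2.22 and 6.34 times. The log2 fold change was −3.38 for *bta-miR-150* (standard error 0.62, −4.79 to −1.96, FDR = 0.0136) and −1.81 for *bta-miR-342* (standard error 0.49, −2.93 to −0.69, FDR = 0.0353). Both were called, against 10.1% of the 358 miRNAs called lower and 5.59% called higher, with a median of −0.20. Without the 25 months sample of steer 3, the changes of *bta-miR-150* and *bta-miR-342* were −3.42 and −1.81 in EX (FDR = 0.0139 and 0.0225). In FC they were −2.47 and −0.97 (FDR = 0.0227 and 0.0317), so that *bta-miR-342* no longer exceeded the fold threshold. With the rows of the FC counts as deposited, neither passed in FC (FDR = 0.0581 and 0.0808).

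**Figure D2:**
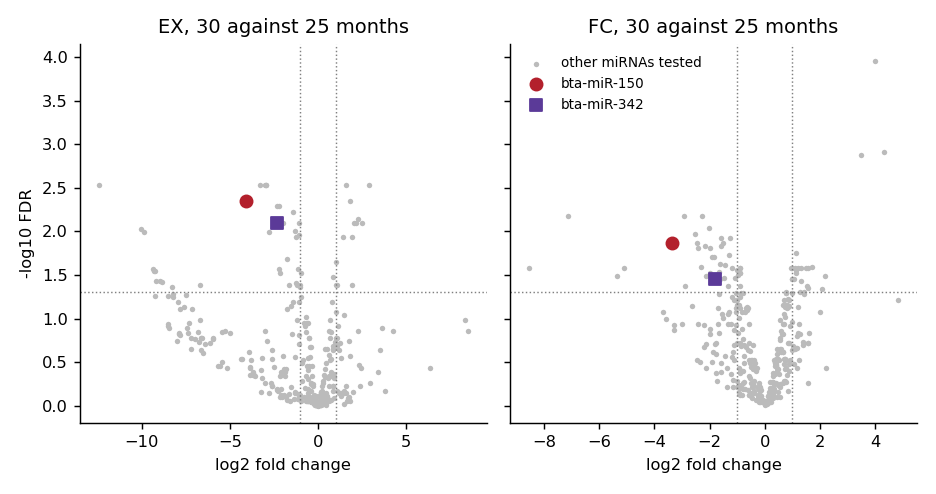
Log2 fold change at 30 against 25 months and −log10 FDR of every miRNA tested in EX (left) and FC (right), with dotted lines at the thresholds. *bta-miR-150* (red circle) and *bta-miR-342* (purple square) lie past both thresholds on the lower side, at −4.06 and −2.31 in EX and −3.38 and −1.81 in FC.

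The comparison of 30 with 20 months has the 30 months libraries in common with the one above. In EX, *bta-miR-150* was 10.3, 21.7 and 6.93 times as abundant at 20 months in steers 1, 2 and 3, and *bta-miR-342* 4.83, 7.05 and 3.60 times. The log2 fold changes were −3.93 (standard error 0.59, −5.29 to −2.57) and −2.71 (standard error 0.42, −3.67 to −1.75), each with FDR = 0.00693 by edgeR. Called lower in this comparison were 9.86% of the miRNAs and called higher 3.48%, with a median of −0.64. In FC, *bta-miR-150* was 4.16, 11.0 and 6.78 times as abundant at 20 months, and *bta-miR-342* 2.74, 2.41 and 2.45 times. *bta-miR-150* fell with a log2 fold change of −2.72 (standard error 0.59, −4.07 to −1.38, FDR = 0.0300), where 4.19% of the miRNAs were called lower and 2.79% higher and the median was −0.12. With FC rows as deposited this call was lost (FDR = 0.0663). *bta-miR-342* missed the FDR threshold, with −1.35 (standard error 0.47, −2.42 to −0.29, FDR = 0.102), although its direction was the same in 3 of 3 steers. Its FDR was 0.0290 by DESeq2, whereas that of *bta-miR-150* was then 0.0987.

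Leaving out any 1 steer took away part of these calls, while the direction stayed. *bta-miR-342* in EX at 30 against 25 months and *bta-miR-150* in FC at 30 against 20 months lost the call whichever steer was left out. Both miRNAs lost it in EX at 30 against 20 months without steer 1 or 2, and in FC at 30 against 25 months without steer 1 or 3. The FDR of the lost calls ran from 0.0503 to 0.110. For *bta-miR-150* in EX at 30 against 25 months, the log2 fold change then ran from −4.65 to −3.61, and the FDR exceeded 0.05 without steer 2 (0.0760) and without steer 3 (0.0582). Without steer 3, *bta-miR-342* in FC was at −0.98 in this comparison, with an FDR of 0.0767. The reference miRNA of the study's qPCR, *bta-miR-93*, had a log2 fold change of 0.37 in EX (FDR = 0.470) and 0.54 in FC (FDR = 0.102). Scaled to it, *bta-miR-150* and *bta-miR-342* were at −4.50 and −2.71 in EX and at −3.92 and −2.34 in FC at 30 against 25 months. Scaling moved the whole profile: by library totals alone the median of all EX miRNAs rose by 0.47, and scaled to *bta-miR-93* it was lower by 0.32 in EX and by 0.54 in FC. By library totals, 50% of the calls in EX were lower at 30 months in place of 73.5%, and with *bta-miR-93* 89.5%. The changes of *bta-miR-150* and *bta-miR-342* in EX by library totals were −3.59 and −1.84, with a median of −0.04.

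At 25 against 20 months neither miRNA passed the test in either fraction. In EX the log2 fold change was 0.13 for *bta-miR-150* (standard error 0.54, −1.11 to 1.37) and −0.40 for *bta-miR-342* (standard error 0.40, −1.31 to 0.52), each with FDR = 0.997. In FC it was 0.65 (standard error 0.57, −0.66 to 1.96) and 0.46 (standard error 0.48, −0.65 to 1.56), each with FDR = 0.999. By edgeR, 0.29% of the EX miRNAs were called, 1 of 345, and 0% in FC, where 13 of 358 had an unadjusted p below 0.05 and DESeq2 called 0. Each interval reached past a change of 1 on the log2 scale in at least 1 direction.

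The steers differed in direction between these ages. For *bta-miR-150*, the log2 difference in EX libraries was −0.73, −0.39 and 1.22 in steers 1, 2 and 3, whereas in FC libraries it was −0.25, −0.07 and 1.57. For *bta-miR-342* it was −0.87, −1.01 and 0.38 in EX libraries, and −0.55, −0.12 and 1.37 in those of FC. Both miRNAs were thus lower at 25 months in steers 1 and 2 and higher in steer 3, in both fractions. Without the 25 months sample of steer 3, the fitted change turned to −0.41 for *bta-miR-150* in EX and to −0.25 and −0.39 for *bta-miR-150* and *bta-miR-342* in FC. That of *bta-miR-342* in EX moved from −0.40 to −0.86, and the FDR was 0.999 for each of the 4.

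The ratio of *bta-miR-150* to *bta-miR-342* in a library does not depend on the library total or on normalization. Each read covers a mature miRNA, so counts were not divided by length, and the capture of the 2 sequences into libraries was not measured. In EX of steers 1, 2 and 3, the ratio was 4.64, 3.44 and 3.18 at 20 months, then 5.13, 5.31 and 5.70 at 25 months, and finally 2.18, 1.12 and 1.65 at 30 months. In FC the 20 months ratios were 3.48, 4.38 and 4.63, the 25 months ratios 4.28, 4.52 and 5.32, and the 30 months ratios 2.29, 0.963 and 1.67. In both fractions the 30 months ratios lay below all others, and in EX the 3 ratios at 25 months lay above those at 20 months.

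On the log2 scale, the ratio was lower at 30 than at 25 months by a mean difference of −1.76 in EX (standard error 0.29) and −1.60 in FC (standard error 0.39). Against 20 months the difference was −1.22 (standard error 0.21) in EX and −1.42 (standard error 0.46) in FC. Each had the same sign in 3 of 3 steers, and the exact two-sided sign-flip test gave p = 0.25 for all 4, the smallest p that 3 steers allow. From 20 to 25 months the ratio was higher by 0.54 (standard error 0.21) in EX and by 0.18 (standard error 0.07) in FC, in 3 of 3 steers and with the same exact p = 0.25. Over the 7 ratio comparisons, a p of 0.25 cannot pass any correction. Between EX and FC of the same plasma the log2 ratio differed by 0.03 (standard error 0.10, exact p = 0.75).

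**Figure D3:**
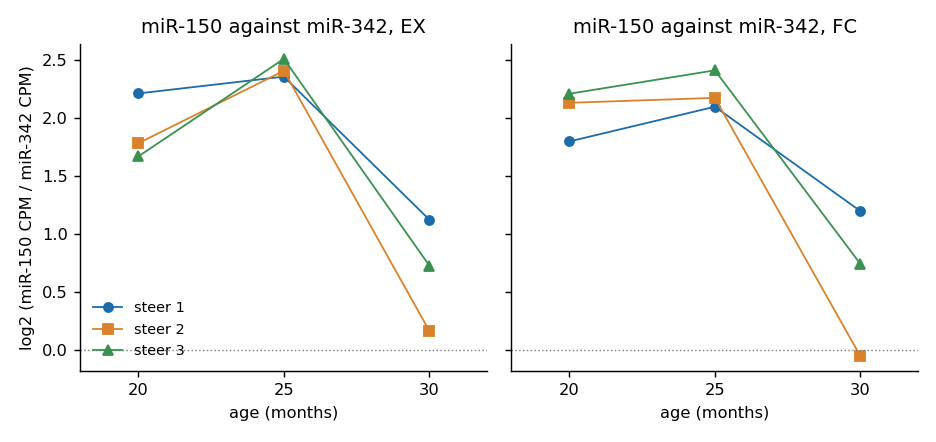
Log2 ratio of *bta-miR-150* to *bta-miR-342* CPM in each library against age in months, for EX (left) and FC (right), with 1 line for each steer and a dotted line at equal abundance. The ratio is lowest at 30 months in every steer, and steer 2 reaches a ratio of 1.12 in EX and 0.963 in FC.

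Since each plasma sample gave both libraries, EX could be set against FC within it. Both miRNAs were higher in EX in all 3 plasma samples at 20 months and in all 3 at 25 months, whereas at 30 months *bta-miR-150* was higher in 2 and *bta-miR-342* in 1. The ratio of EX to FC for *bta-miR-150* was 2.01, 1.99 and 1.82 at 20 months in steers 1, 2 and 3, then 1.45, 1.61 and 1.42 at 25 months, and finally 0.815, 1.01 and 1.78 at 30 months. For *bta-miR-342* it was 1.51, 2.54 and 2.64, then 1.21, 1.36 and 1.33, and then 0.858, 0.868 and 1.80. *bta-miR-150* was higher in EX in 8 of 9 plasma samples and *bta-miR-342* in 7 of 9. At 30 months steer 3 was the highest in both.

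With plasma sample as a block, the log2 difference at 20 months was 0.91 for *bta-miR-150* (standard error 0.17, 0.54 to 1.28, FDR = 0.00795) and 1.07 for *bta-miR-342* (standard error 0.20, 0.63 to 1.51, FDR = 0.00839). A call between fractions, here and for the change with age, was made at FDR < 0.05 alone, with no fold threshold. Both were called by edgeR over the 330 miRNAs selected in both fractions, of which 3.33% were called higher in EX and 6.06% lower. At 25 months the differences were 0.56 (0.19 to 0.93, FDR = 0.0966) and 0.36 (−0.08 to 0.80, FDR = 0.419), with 2.12% of all called higher in EX and 16 of 330 called lower. At 30 months they were −0.08 (−0.45 to 0.30, FDR = 0.755) and −0.12 (−0.56 to 0.32, FDR = 0.677), with 5.15% called higher in EX and 55 of 330 called lower. The medians of all miRNAs were −0.14, −0.34 and −0.55. The calls at 20 months rest on the pairing of EX with FC from one plasma sample: with no block the FDR was 0.859 for *bta-miR-150* and 0.689 for *bta-miR-342*, and with steer as the block 0.719 and 0.602. They were also lost when 1 steer was left out, for *bta-miR-150* without steer 1 (FDR = 0.0522) or steer 2 (0.157) and for *bta-miR-342* without steer 2 (0.198) or steer 3 (0.0606). At 30 months, *bta-miR-150* without steer 3 was called lower in EX (−0.62, FDR = 0.00703). In that fit 49 of 330 miRNAs were called lower in EX, and the median of all was −0.90. By library totals, the difference of *bta-miR-150* at 30 months turned to 0.18 and that of *bta-miR-342* to 0.14.

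The change with age was also compared between the fractions. From 20 to 30 months the fall was larger in EX, by −0.99 for *bta-miR-150* (standard error 0.23, −1.51 to −0.46, FDR = 0.0308) and by −1.19 for *bta-miR-342* (standard error 0.28, −1.82 to −0.56, FDR = 0.0303), on the log2 scale. Of the 330 miRNAs, 6.67% were called in this direction, with a median of −0.39. From 25 to 30 months the differences were −0.63 (−1.16 to −0.11, FDR = 0.144) and −0.48 (−1.10 to 0.14, FDR = 0.334), with 5.76% called in this direction and a median of −0.32. Without steer 3 that of *bta-miR-150* was −1.28 and was called (FDR = 0.0170), with 17 of 330 called in this direction and a median of −0.68. The calls from 20 to 30 months were lost by library totals (FDR = 0.0718 for both), with no block (0.629 and 0.444), with steer as the block (0.508 and 0.342) and without the 25 months sample of steer 3 (0.0554 for both). They were also lost without steer 1 (0.161 and 0.122) and without steer 2 (0.138 and 0.210).

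**Figure D4:**
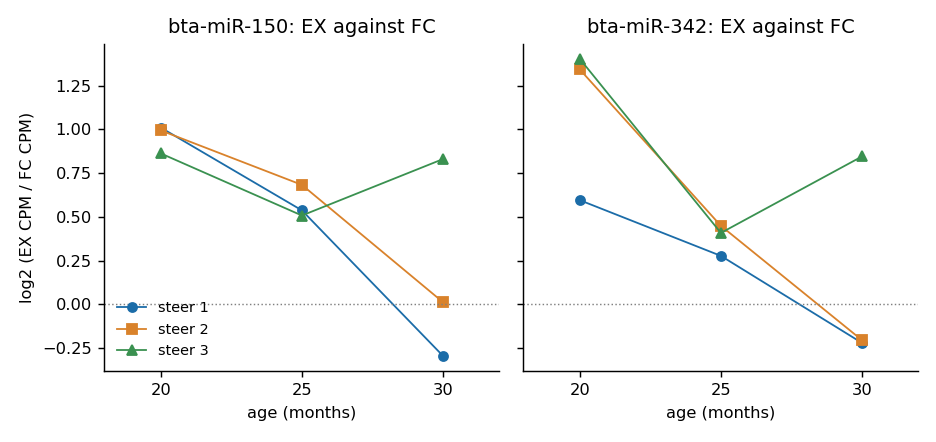
Log2 ratio of EX to FC CPM in the same plasma sample against age in months, for *bta-miR-150* (left) and *bta-miR-342* (right), with 1 line for each steer and a dotted line at equal abundance. All points at 20 and 25 months lie above the line, and at 30 months steer 3 lies at an EX to FC ratio of 1.78 and 1.80, above the other steers.

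Other miRNAs known from leukocytes were examined in the same fits. Several of them are also expressed in lymphocytes, so the list does not set other leukocytes against lymphocytes. Of 11, all tested, 5 fell in EX at 30 against 25 months and 6 in FC, where 10.4% and 10.1% of all miRNAs were called lower, and none of the 11 was called higher. The list medians were −1.67 and −1.55, against −0.51 and −0.20 over all miRNAs. These counts depended on single steers: without steers 1, 2 and 3 in turn, 3, 0 and 0 of the 11 were called lower in EX and 0, 5 and 0 in FC, with 14, 0 and 0 of all 345 and 0, 36 and 0 of all 358. Without the 25 months sample of steer 3, 3 of the 11 were called lower in EX and 3 in FC, with 17 of 345 and 16 of 358 in all. With FC rows as deposited, 2 of the 11 and 8 of 372 in all were called lower in FC. With CPM over 5 in every library, which left 8 of the 11, the list medians were −1.29 in EX and −1.24 in FC. Over all miRNAs so kept they were 0.09 and −0.03. *bta-miR-142-3p*, found in all blood cell lineages, fell from 1875 ± 579 to 508 ± 107 CPM in EX (log2 fold change −2.34, FDR = 0.00517) and from 2812 ± 1010 to 564 ± 233 CPM in FC (−2.44, FDR = 0.0153). *bta-miR-142-5p*, from the other arm of its hairpin, fell in EX by 1.96 on the log2 scale (FDR = 0.00795), and in FC was at −1.20 (FDR = 0.0558). *bta-miR-181a*, abundant in developing lymphocytes, was at −2.37 in EX (FDR = 0.00795) and −2.01 in FC (FDR = 0.00901). *bta-miR-155*, induced in activated lymphocytes and macrophages, was at −1.67 in EX (FDR = 0.0411) and −1.33 in FC (FDR = 0.0419).

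*bta-miR-223*, the main miRNA of neutrophils and other myeloid cells, did not pass. It stood at 24923 ± 14361 and 27294 ± 2363 CPM in EX at 25 and 30 months (log2 fold change −0.23, FDR = 0.796), and at 32559 ± 17484 and 52603 ± 5997 CPM in FC (0.67, FDR = 0.243). *bta-miR-146a*, induced by inflammatory signals, was at −0.97 in EX (FDR = 0.0561) and fell by 1.07 in FC (FDR = 0.0346). *bta-miR-181b* was at 0.31 in EX (FDR = 0.862) and fell by 1.58 in FC (FDR = 0.0118). *bta-miR-28*, called in both, was read at 35.2 CPM in EX and 57.9 CPM in FC on average at 25 months, and at 30 months was at 0 in 2 of 3 libraries of each fraction. *bta-miR-146b*, *-181c* and *-181d* did not pass in either fraction. Against 20 months, 4 of the 11 fell in EX and 3 in FC, where 9.86% and 4.19% of all miRNAs were called lower. The list medians were −1.70 and −1.41, against −0.64 and −0.12 over all miRNAs. With CPM over 5 in every library, which left out *bta-miR-28*, *-181c* and *-181d*, the list medians were −0.77 in EX and −0.95 in FC. Over all miRNAs so kept they were −0.008 and 0.015. Without steers 1, 2 and 3 in turn, 0, 0 and 0 of the 11 were called lower in EX and 0, 1 and 1 in FC, with 0, 0 and 7 of all 345 and 0, 2 and 5 of all 358. In EX, 1 of the 11 was called higher without steer 3, where 5 of all 345 were called higher. The same count was called higher by the likelihood ratio test (14 of 345), DESeq2 (23 of 345) and fitting only the 2 ages (11 of 345). It was also reached without the 25 months sample of steer 3 (11 of 345) and with CPM over 5 in every library (21 of 170). The CPM of *bta-miR-181b* in EX ran from 250 to 4720 at 20 months and from 6859 to 13829 at 30 months. With FC rows as deposited, 0 of the 11 and 0 of 372 in all were called lower in FC. At 25 against 20 months none of the 11 passed. In EX, 1 was called higher without steer 3 (1 of all 345) and with CPM over 5 in every library (3 of 170).

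The summed CPM of the 11 ran from 71514 to 91156 at 25 months and from 53124 to 58397 at 30 months in EX, with no overlap. In FC it ran from 80882 to 93186 and from 71531 to 89151, with overlap, and *bta-miR-223* made up a large part of it. Between the fractions at 20 months, 2 of the 11 were called lower in EX, as were 6.06% of all miRNAs, and none was called higher, with a list median of −0.24. These were *bta-miR-142-3p*, at −0.91 (FDR = 0.00956), and *bta-miR-223*, at −0.55 (FDR = 0.00703), and neither was called with no block or with steer as the block. The other 9 did not pass, and among them *bta-miR-181c* was at 0.73 (FDR = 0.973). Without steers 1, 2 and 3 in turn, 2, 0 and 1 of the 11 were called lower in EX, with 6, 5 and 10 of all 330.

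Red-cell, liver and muscle miRNAs were examined as signs of other sources of plasma RNA. Of the red-cell miRNAs, *bta-miR-451* fell in EX at 30 against 25 months, from 25221 ± 15903 to 7325 ± 1330 CPM (log2 fold change −2.21, FDR = 0.0268), and in FC was at −1.68 (FDR = 0.0516). *bta-miR-486* was at −0.04 in EX (FDR = 0.976) and 0.41 in FC (FDR = 0.552), and *bta-miR-144* did not pass in either. The call of *bta-miR-451* was lost by library totals and without any 1 steer. The summed red-cell CPM ran from 28558 to 92244 at 25 months and from 34776 to 54074 at 30 months in EX, and from 18948 to 46802 and 21521 to 34381 in FC. The list median was −1.76 in EX and −0.56 in FC. At 20 months, 2 of the 3 were called higher in EX than in FC, as *bta-miR-150* and *bta-miR-342* were, with a list median of 0.78, against 3.33% called higher and a median of −0.14 over all miRNAs. Without steers 1, 2 and 3 in turn, 1 of the 3 was called higher each time, as were 5, 4 and 5 of all 330. *bta-miR-451* was at 1.09 (FDR = 0.0175) and *bta-miR-486* at 0.63 (FDR = 0.00703), and neither was called with no block or with steer as the block.

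The hepatocyte miRNA *bta-miR-122* was at 35159 ± 33001 and 81493 ± 40065 CPM in EX at 25 and 30 months (log2 fold change 1.04, FDR = 0.165), and at 0.72 in FC (FDR = 0.287). The other liver miRNA, *bta-miR-885*, was called lower in FC, where it was at 22.3 ± 3.20 CPM at 25 months and at 0.175 ± 0.304 CPM at 30 months, and did not pass in EX. Over all libraries, the 7 muscle miRNAs together made up 48.4 to 730 CPM of EX, whereas FC held 117 to 397 CPM. Of these, 5 were tested and did not pass in either fraction, and the heart miRNA *bta-miR-208a* was at 0 in 6 of 6 libraries at 30 months, 5 of 6 at 25 months and 2 of 6 at 20 months. The part of red cells or liver in the results for *bta-miR-150* and *bta-miR-342* was not tested.

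**Figure D5:**
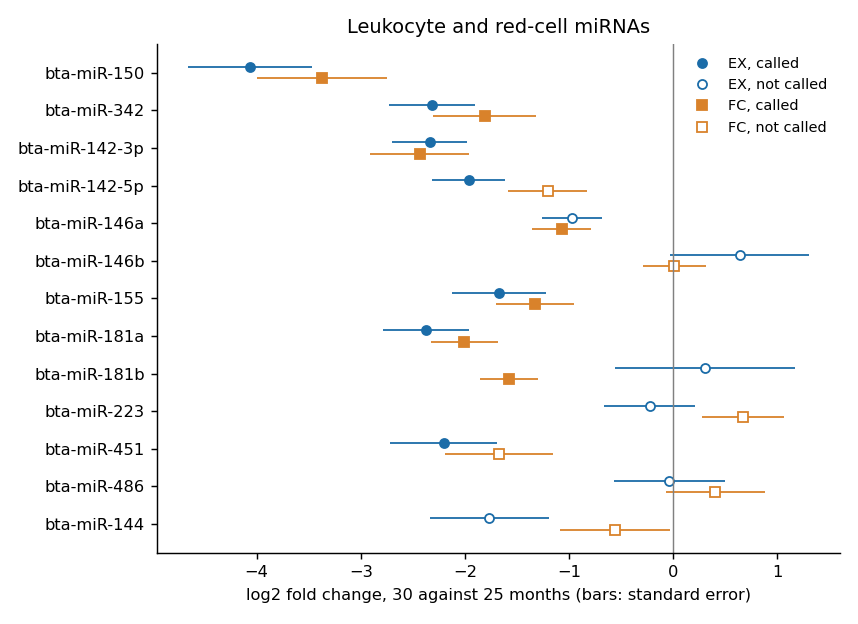
Log2 fold change at 30 against 25 months, with standard errors as bars, of *bta-miR-150*, *bta-miR-342* and other miRNAs of leukocytes and red cells, in EX (blue circles) and FC (orange squares). Filled symbols were called; *bta-miR-150* lies lowest in both fractions, and miRNAs at 0 in any library are not drawn.

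To see which miRNAs varied most like *bta-miR-150* and *bta-miR-342*, Pearson's r of log2(CPM + 1) was computed over the 18 libraries for the 150 miRNAs with a mean over 100 CPM in both fractions. The libraries come from 3 steers and share the step at 30 months, so r is given as a description only. Over the 18 libraries together, the closest to *bta-miR-150* was *bta-miR-342*, with r = 0.95, and the reverse also held. With group means taken out r was 0.82, and 0.54 without the 25 months sample of steer 3 (16 libraries). For *bta-miR-31* with *bta-miR-150* these were 0.81 and 0.63. Next for *bta-miR-150* came *bta-miR-92a* (0.94), *bta-miR-30b-5p* (0.93), *bta-miR-31* (0.92) and *bta-miR-30c* (0.92). For *bta-miR-342* they were *bta-miR-92a* (0.88), *bta-miR-30b-5p* (0.87), *bta-miR-181a* (0.86) and *bta-miR-30c* (0.85). Within EX, r with *bta-miR-150* was 0.960 for *bta-miR-342*, and higher for *bta-miR-30c* (0.987), *bta-miR-30b-5p* (0.964) and *bta-miR-92a* (0.963). Within FC it was 0.954 for *bta-miR-342*, and higher for *bta-miR-31* (0.973) and *bta-miR-92a* (0.970). With group means and that sample taken out, r was 0.48, 0.56, 0.63 and 0.45 for *bta-miR-92a*, *bta-miR-30b-5p*, *bta-miR-31* and *bta-miR-30c* with *bta-miR-150*, and 0.18, 0.19, −0.083 and 0.22 for the 4 named with *bta-miR-342*.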

How the data were processed

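Small RNA was sequenced from EX and FC fractions of 9 plasma samples of 3 steers. The authors trimmed reads with cutadapt 5.0 and Trimmomatic 0.39, checked them with FastQC 0.12.1, mapped them to a Japanese Black genome resequenced from a cattle reference, and counted mature miRNAs with miRDeep2. The authors deposited estimated counts, part of them fractional where reads were shared, and CPM, another scaling of the same counts. The CPM table has a row of library totals, which was left out.

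In 4 FC libraries 101, 90, 77 and 88 low counts stood 1 row off the CPM table and were recomputed from it, within a tolerance of 0.001 of the value or 0.02 counts; 0 values of *bta-miR-150* or *bta-miR-342* moved. Which of the tables has the right rows was not known, and the FC calls of both miRNAs were lost with the counts as deposited. With the rows of the CPM table, 358 miRNAs were selected in FC and 330 in both fractions, the numbers that the study reports. With the counts as deposited these were 372 and 329. Counts were rounded and miRNAs with CPM > 5 in at least 3 of 9 libraries kept. TMM and quasi-likelihood tests were run in edgeR 4.0.16 (R 4.3.3, limma 3.58.1), with Benjamini-Hochberg FDR over all miRNAs of a comparison. Age was fitted with steer as a block in the 9 libraries of a fraction. EX and FC were compared in all 18 libraries with plasma sample as a block. Standard errors come from the log2 fold change and its F value. Other settings included DESeq2 1.42.0. Ratios were tested by exact sign flips in Python 3.11.15 with scipy 1.17.1.

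Replicate numbers were taken to mark the same steer at each age and in both fractions, as the study's sampling list gives the same 3 animals. The library labels do not state this, and all values by steer rest on it. Deviations from group means correlated at 0.0232 within a steer and −0.0117 between steers in EX, at 0.0893 and −0.0450 in FC, and at 0.234 and −0.118 between EX and FC.

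Named are *bta-miR-150* and *bta-miR-342*, the qPCR reference, the cell lists, and for each of the 2 the 5 miRNAs most correlated with it. The miRNAs, lists and tests were chosen with earlier results of these data known. The methods were tested on simulated data. No author fold changes were used. The carcass and qPCR data were not analysed here.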

Additional observations from a re-analysis of the deposited data

Results flagged for a closer look

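Between 20 and 30 months, a difference between EX and FC in the change was called by the test of the interaction of fraction and age in edgeR with plasma sample as a block. For *bta-miR-150* the log2 fold change in EX minus that in FC was −0.99 (FDR = 0.0308), and the fold was larger in EX in 3 of 3 steers, at 10.3, 21.7 and 6.93 against 4.16, 11.0 and 6.78. For *bta-miR-342* the difference was −1.19 (FDR = 0.0303), with folds of 4.83, 7.05 and 3.60 against 2.74, 2.41 and 2.45. In steer 3 the folds of *bta-miR-150* in the 2 fractions were nearly equal. The median difference over all 330 miRNAs was −0.39. Both calls were lost by library totals, with no block, with steer as the block, without the 25 months sample of steer 3, without steer 1 and without steer 2.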

How the results depend on the processing

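Over 350 recomputed values, 274 kept direction and side of the threshold, 43 lost the call, 19 gained it and 14 turned direction; the cause was not tested unless named. All calls at 30 against 25 or 20 months kept their direction. In EX they also passed in every setting with all 3 steers.

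In FC, counts as deposited gave *bta-miR-150* −3.39 and −2.74 (FDR 0.0581 and 0.0663) against 25 and 20 months, and *bta-miR-342* −1.82 against 25 months (0.0808); DESeq2 gave *bta-miR-150* −2.71 against 20 months (0.0987). *bta-miR-342* against 20 months passed with no filter (−1.43), with CPM over 5 in every library (−1.35), by the likelihood ratio test (−1.35), DESeq2 (−1.33), scaling to *bta-miR-93* (−1.76) and fitting only the 2 ages (−1.35), which also took its call against 25 months (−1.66, 0.0828).

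Without the 25 months sample of steer 3, chosen after its values were seen, *bta-miR-342* in FC lost its call against 25 months (−0.97, under the fold threshold) and gained one against 20 months (−1.35, FDR 0.00508). The change at 25 against 20 months turned to −0.41 (*bta-miR-150*, EX), −0.25 and −0.39 (FC), and the fraction differences in change of −0.99 and −1.19 missed the threshold.

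For EX against FC, library totals gave 0.18 and 0.14 at 30 months for *bta-miR-150* and *bta-miR-342*, and −0.78 and −0.98 for the change from 20 to 30 months; totals without the 2 miRNAs gave 0.18 and 0.14. No filter gave −1.17 for *bta-miR-342* in that change (FDR 0.0683). At 25 months *bta-miR-150* passed with RLE (0.69), totals without the 2 (0.68), no filter (0.64), CPM over 5 in every library (0.65), the likelihood ratio test (0.56), counts as deposited (0.65) and that age alone (0.63), the last also for *bta-miR-342* (0.44).

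With no replicate block, EX against FC at 20 months was 0.93 and 1.09 and the difference in change −0.9999 and −1.18, none called; with steer as the replicate block, 0.95 and 1.05, and −1.11 and −1.23, none called. The fit without the block changed no other call.

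Leaving out each steer in turn leaves 2 steers and fewer degrees of freedom. Lost calls are those given with the results. *bta-miR-342* in FC against 20 months was called without steer 3 (FDR 0.0414), where 5 of 358 were called lower. So was *bta-miR-150* in EX against FC at 25 months (0.65, FDR 0.0144), where 6 of 330 were called higher. *bta-miR-150* in EX then ran from −4.65 to −3.61 against 25 months, −4.18 to −3.35 against 20 months and −0.57 to 0.62 at 25 against 20 months. In FC it ran from −4.17 to −2.46, −3.31 to −2.25 and −0.24 to 1.09. *bta-miR-342* ran from −2.68 to −1.92, −2.89 to −2.31 and −0.97 to 0.081 in EX, and from −2.23 to −0.98, −1.41 to −1.33 and −0.40 to 0.82 in FC. EX against FC ran from 0.94 to 1.01 and 0.98 to 1.39 at 20 months, 0.63 to 0.68 (*bta-miR-150*) at 25 months, and −0.62 to 0.13 and −0.69 to 0.024 at 30 months. The difference in change ran from −1.28 to −0.55 (*bta-miR-150*) against 25 months, and −1.63 to −0.82 and −1.67 to −1.09 against 20 months. The log2 ratio of the 2 miRNAs in EX against FC ran from −0.059 to 0.12.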
